A study of Mus musculus with 27 samples.

Results

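The lysosome is the acid compartment in which a cell degrades proteins, sugars and lipids, and autophagy is the process that carries pieces of the cell's own contents to it. Here 55 genes of this system were followed in mouse T cells. They comprised 16 genes of the vacuolar proton pump, 19 genes of lysosomal enzymes and membrane proteins, and 20 autophagy genes, with the transcription factors Tfeb and Tfe3 kept among the last. The genes were chosen by symbol from the 26802 genes of the count table, and all 55 had a row in it. The low-count filter was passed by 52 of them, that is by all 16 pump genes, 18 of the 19 lysosome genes and 18 of the 20 autophagy genes. Cd63, Wipi1 and Map1lc3a had too few counts and were not tested.

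RNA was sequenced from CD4+ and CD8+ T cells of C57BL/6 (B6) mice, purified from pooled lymph node and spleen by magnetic removal of the other cells. WT mice carried no Cre recombinase according to the labels. Raptor KO mice were CD4-cre Rptor fl/fl and Rictor KO mice CD4-cre Rictor fl/fl, so each knockout differs from WT both in its floxed gene and in Cre. The Cd4 promoter that drives this Cre is active in thymocytes before the subsets part, so Cre is made in the precursors of both. Cells were cultured for 48 h either with IL-7 at 5 ng/ml, here called resting, or on plates coated with anti-CD3 and anti-CD28 (10 µg/ml), here called stimulated. The stimulated cells received no IL-7 according to the labels, so a stimulation effect includes its absence. Live cells were then sorted. There were 27 libraries in 9 groups of 3: WT and Raptor KO of each subset in both cultures, and Rictor KO as stimulated CD8+ cells. Separate animals are not named for the libraries of a group. The p-values therefore reflect the spread among these libraries alone, which may be technical.

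The vacuolar ATPase pumps protons into the lysosome. Its V1 domain, which lies in the cytosol, hydrolyses ATP, and its V0 domain, which lies in the membrane, passes the protons. mTORC1, the kinase complex that needs Raptor, is switched on at the lysosomal surface with the help of this pump. Active mTORC1 restrains autophagy by phosphorylating Ulk1, and it holds Tfeb and Tfe3 in the cytosol. When it is inactive, both factors enter the nucleus and can bind the sequence CACGTG and its extended form TCACGTGA near lysosomal genes. T cells that are activated switch mTORC1 on as they grow and divide.

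Library totals ran from 8640699 to 16817347 counts (median 11985929). The ribosomal RNA precursor Rn45s, left out of all tests and levels here, held 81.12% to 88.4% of them. The members together held 1427 to 4875 counts per library, with a median of 2323, so a single member rests on a small share of each library. T cell markers summed to 582.6 to 988.1 CPM per library, the 14 myeloid markers to 1.376 to 27.7 CPM and the 9 B cell markers to 9.80 to 61.4 CPM. Of 8 listed erythroid, platelet and stromal markers, 6 had a row in the count table and summed to 5.50 to 112.5 CPM. Ppbp and Col1a2 had none. CPM here is a gene's count scaled to a common library size, the total over tested genes times its TMM factor. Over the whole gene, Rptor RNA did not pass the test in any Raptor KO comparison (log2 fold change ± SE of -0.34 ± 0.20 for resting CD4+, -0.25 ± 0.20 for stimulated CD4+, -0.21 ± 0.19 for resting CD8+ and -0.23 ± 0.21 for stimulated CD8+ cells). Rictor RNA did not pass it in Rictor KO cells (-0.20 ± 0.16, adjusted p = 0.961). Whole-gene counts include exons outside a floxed part, so these values are a weak check of the labels. In bulk RNA, fewer cells of a type and less RNA per cell cannot be told apart.

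The promoters of the members bear on the named motif, so a few are shown before the values. RefSeq promoters on GRCm38.p6, from 250 bases before to 50 after the start, were found for 43 of the 55 members. CACGTG was present in 15 of these, or 34.9%, against 8.09% of the 27025 genes with a promoter in the same table. TCACGTGA, which contains CACGTG, was present in 8, or 18.6%, against 1.12%. Both motifs read the same on the other strand, so a match counts for both strands. By class, CACGTG was found in 8 of 17 lysosome, 4 of 11 pump and 3 of 15 autophagy promoters. The 8 promoters with the longer form belonged to Atp6v0d1, Atp6v0e, Atp6v1a, Ctsa, Ctsd, Gla, Mcoln1 and Atg3. A match is a description of these letters and does not show that a factor binds. The 4 stretches below belong to genes whose values differed between Raptor KO and WT cells in at least 1 comparison or in their response to stimulation. They were taken from those with CACGTG, which Atp6v0d1 also holds. Other genes with such a difference had no match or no promoter here, among them Psap, Ctsb, Ctsz, Tpp1, Hexa, Rb1cc1, Ulk2 and Gabarap. The shown genes differed in opposite directions, and whether the motif goes with these differences was not tested. All 4 stretches lie before the RefSeq start and run 5′ to 3′ on the gene's strand, with CACGTG in capitals. In the annotation used for gene lengths the gene begins upstream of that start in all 4 cases, so these stretches lie partly or wholly inside the annotated gene.
Ctsd, chr7:142387828-142388077, minus strand, 250 bases: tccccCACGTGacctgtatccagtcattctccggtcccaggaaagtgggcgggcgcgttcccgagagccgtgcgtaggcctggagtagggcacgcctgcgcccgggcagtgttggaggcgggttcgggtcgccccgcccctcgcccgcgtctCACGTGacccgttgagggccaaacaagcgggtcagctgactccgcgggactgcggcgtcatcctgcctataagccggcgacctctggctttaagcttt
Gaa, chr11:119267713-119267962, plus strand, 250 bases: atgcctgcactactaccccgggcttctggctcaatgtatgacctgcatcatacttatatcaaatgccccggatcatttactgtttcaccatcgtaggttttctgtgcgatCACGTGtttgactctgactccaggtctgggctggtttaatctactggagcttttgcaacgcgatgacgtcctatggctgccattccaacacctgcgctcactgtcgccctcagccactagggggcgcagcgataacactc
Mcoln1, chr8:3500444-3500509, plus strand: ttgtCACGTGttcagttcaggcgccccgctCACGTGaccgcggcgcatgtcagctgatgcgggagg
Atp6v1a, chr16:44139355-44139420, minus strand: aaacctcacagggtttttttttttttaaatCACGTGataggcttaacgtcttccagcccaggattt
The Ctsd stretch holds 2 matches, of which the nearer begins 98 bases before the start. In Gaa the single match begins 140 bases before it, in Mcoln1 the nearer of 2 begins 45 bases before it, and in Atp6v1a the single match begins 131 bases before it. Gaa holds the short form without the longer one.

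In resting WT cells the members differed widely in level. Levels of different genes are compared here only per kb of exon. Psap, the precursor of the saposins that help enzymes degrade sphingolipids, had the highest level, at 47.0 ± 0.188 CPM per kb (SD, n = 3 here and below) in CD4+ and 57.7 CPM per kb in CD8+ cells. Gabarap, an Atg8-family protein that coats autophagosomes, had 24.1 ± 6.91 CPM per kb in CD4+ cells. Ctsd, the aspartic protease cathepsin D, had 23.4 ± 2.06 CPM per kb there, which does not differ from Gabarap beyond their spread. Next came Sqstm1, the autophagy receptor p62, at 16.7 ± 2.32 CPM per kb and Atp6v1f, a small V1 subunit, at 15.6 ± 1.87 CPM per kb, and these also lie within their spread. At the low end, Atp6v0a1 had 0.396 ± 0.24 CPM per kb, Gabarapl1 0.392 ± 0.103 CPM per kb and Wipi1, which was not tested, 0.0914 ± 0.0818 CPM per kb. The 2 a subunits of V0 thus stood far apart, since Atp6v0a2 had 7.48 ± 0.531 CPM per kb in the same cells. Map1lc3a, a further Atg8-family gene, lay between 0 and 3.91 CPM in all 27 libraries.

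The classes as sums are shown in the plot of summed levels. The 16 pump genes summed to 407.5 ± 13.5 CPM in resting and 442.5 ± 6.21 CPM in stimulated WT CD4+ cells, and to 349.1 ± 15.1 and 444.3 ± 45.9 CPM in WT CD8+ cells. The stimulated libraries lay above the resting ones in both WT subsets. In Raptor KO cells the pump sums of the 2 cultures overlapped, at 410.4 ± 15.5 resting and 387.3 ± 31.6 CPM stimulated in CD4+ and 415.7 ± 21.4 and 431.0 ± 14.9 CPM in CD8+ cells. The 20 autophagy genes summed to 509.7 ± 5.62 CPM in resting and 335.7 ± 19.3 CPM in stimulated WT CD4+ cells, and to 474.6 ± 6.70 and 319.7 ± 5.05 CPM in WT CD8+ cells. Each stimulated library lay below each resting one, in both genotypes. The 19 lysosome genes also had lower sums after stimulation, with no overlap within a genotype and subset, from 499.2 ± 21.6 to 467.0 ± 17.5 CPM in WT CD4+ and from 573.5 ± 16.5 to 468.7 ± 17.9 CPM in Raptor KO CD4+ cells. The CD8+ lysosome sums were 530.8 ± 25.9 and 473.4 ± 30.3 CPM in WT, and 585.9 ± 83.7 and 427.0 ± 33.5 CPM in Raptor KO. The sums were not tested. They are relative to all other genes except Rn45s and are carried by the most abundant members. By the means, Psap alone fell by more than the lysosome sum in both WT subsets. Its WT CD4+ libraries went from 129, 129 and 128 CPM to 55.1, 57.9 and 57.0 CPM. The other lysosome genes together thus had higher mean sums after stimulation in WT cells. In WT CD4+ cells Atp6v1a alone rose by more than the pump sum.

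**Figure D1:**
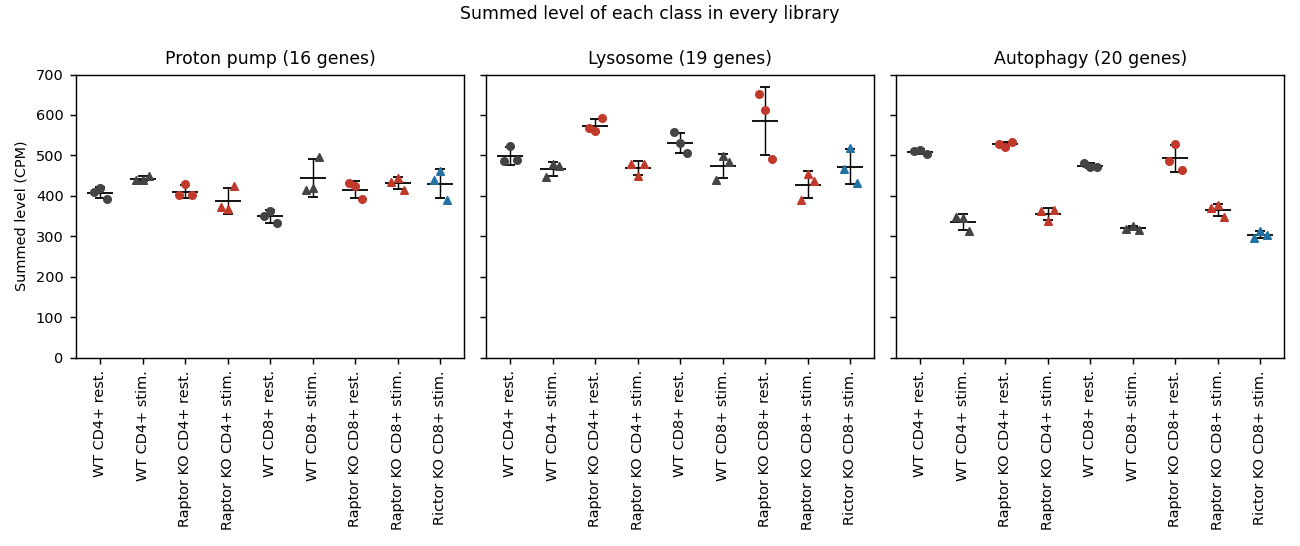
Summed CPM of the 16 pump, 19 lysosome and 20 autophagy genes (y axis) in each of the 27 libraries by group (x axis), with points for libraries and bars for the mean and SD of 3. The autophagy sums of stimulated groups lie at 295.3 to 376.9 CPM, below all resting libraries at 463.5 to 534.0 CPM.

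The first question is how stimulation moved these genes in WT cells. A member is called higher or lower where its p from edgeR's quasi-likelihood test, adjusted by Benjamini-Hochberg over all 10493 tested genes, is under 0.05. In WT CD4+ cells 13 of the 52 tested members were higher and 19 lower after stimulation, while 32.4% of all genes were called higher and 32.5% lower. In WT CD8+ cells 16 were higher and 16 lower, while 32.0% of all genes were called higher and 30.8% lower. The list as a whole was therefore called about as often as any gene, and what follows concerns which members moved. The pump had 5 higher and 2 lower members in CD4+ and 8 higher and 2 lower in CD8+ cells, with median log2 fold changes of 0.35 and 0.44. The autophagy genes had 1 higher and 9 lower in CD4+ and 2 higher and 8 lower in CD8+ cells, with medians of -0.38 and -0.52, the latter turning to 0.26 with Rn45s kept in the library totals. The lysosome genes were split, with 7 higher and 8 lower in CD4+ and 6 higher and 6 lower in CD8+ cells (medians -0.12, which turns to 0.18 with Rn45s kept, and 0.07). The medians over all tested genes were -0.03 and 0.00. These directions are relative to other genes: with Rn45s kept in the library totals, the median of all genes moves to 0.23 in CD4+ and 0.75 in CD8+ cells. On that scale the members split into 10 higher and 7 lower in CD4+ and 21 higher and 1 lower in CD8+ cells. There the autophagy medians, -0.17 in CD4+ and 0.26 in CD8+ cells, still lie under the median of all genes. Of the calls, 5 in CD4+ and 9 in CD8+ cells were lost only with Rn45s kept, among them Atp6v0a2 in CD4+ and Atp6v1d, Scarb2, Psap, Ulk2 and Map1lc3b in CD8+ cells.

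Other measures also moved with culture. The 6 erythroid, platelet and stromal markers with a row summed to 95.3 to 112.5 CPM in resting and 5.50 to 14.9 CPM in stimulated WT CD4+ libraries. In WT CD8+ cells they summed to 58.9 to 82.1 CPM and 7.35 to 9.63 CPM. These markers were Hba-a1, Hbb-bs, Alas2, Pf4, Col1a1 and Pecam1. Col1a1 was at 0 in resting WT CD4+, Hba-a1 in resting WT CD8+ and Pf4 in stimulated WT CD8+ cells. The sums do not show which marker carried the change, nor which cells it came from. The 14 myeloid markers went from 8.22 to 11.0 CPM down to 1.38 to 4.54 CPM in WT CD4+ and from 8.51 to 10.7 CPM down to 1.58 to 2.83 CPM in WT CD8+ cells, with 8 of them, Lyz2 included, at 0 in either stimulated group. The cultures did not overlap in any of these sums. The 9 T cell markers also fell without overlap. In WT CD4+ cells they went from 954.4 to 988.1 CPM down to 775.2 to 872.9 CPM. In WT CD8+ cells they went from 875.9 to 962.6 CPM down to 620.8 to 640.7 CPM. The B and NK cell sums overlapped in both WT subsets, with B cell sums of 16.7 to 24.1 CPM resting and 19.5 to 23.9 CPM stimulated in CD4+ cells. Dendritic cell sums overlapped in WT CD8+ cells but were lower after stimulation in WT CD4+ cells. The protein-coding share of the counts other than Rn45s was 24.21% to 32.96% in resting and 49.87% to 62.53% in stimulated WT CD8+ cells, and 27.55% to 45.15% and 38.92% to 63.56% in WT CD4+ cells, which overlap. In Raptor KO cells the erythroid, platelet and stromal sums were 56.3 to 80.7 CPM resting and 8.97 to 26.9 CPM stimulated in CD4+, and 30.3 to 40.3 CPM and 9.41 to 12.5 CPM in CD8+ cells. The Raptor KO myeloid sums were 10.7 to 13.4 CPM and 2.36 to 6.20 CPM in CD4+, and 11.6 to 27.7 CPM and 4.31 to 10.9 CPM in CD8+ cells. The part of these values in the stimulation results was not tested.

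Among the pump genes, Atp6v1a, the catalytic A subunit of V1, moved most clearly upward. In CD4+ cells it measured 23.0, 13.6 and 19.5 CPM in resting libraries 1, 2 and 3 and 64.9, 57.0 and 62.5 CPM in the stimulated ones, a log2 fold change of 1.72 ± 0.18 (adjusted p = 5.96e-11). In CD8+ cells Atp6v1a went from 15.6, 14.0 and 14.0 CPM to 68.6, 55.7 and 72.4 CPM (2.18 ± 0.19, adjusted p = 5.29e-13). Every stimulated library was above every resting one by a wide margin. Atp6v1d, the D subunit of the V1 stalk, fell at the same time, from 50.8, 61.3 and 58.5 CPM to 20.1, 18.7 and 18.2 CPM in CD4+ cells (-1.59 ± 0.17, adjusted p = 7.15e-11). In CD8+ cells Atp6v1d fell from 46.1, 41.1 and 33.5 CPM to 19.3, 15.5 and 21.2 CPM, again without overlap (-1.07 ± 0.18). The subunits of the same domain therefore did not move together.

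Within V0, the a2 subunit gene Atp6v0a2 fell in CD4+ cells, from 49.4, 54.2 and 47.2 CPM to 27.9, 34.8 and 24.2 CPM (-0.81 ± 0.20, adjusted p = 0.000542), and the libraries did not overlap. In CD8+ cells Atp6v0a2 measured 31.2, 60.8 and 45.7 CPM resting and 32.7, 39.6 and 26.6 CPM stimulated (-0.49). It was called there, but the libraries overlapped and the call was lost without resting library 2 (adjusted p = 0.344), resting library 3 (0.0755), stimulated library 1 (0.0657) or stimulated library 3 (0.201). The a1 gene Atp6v0a1 started near 0. It was measured at 0.709, 0 and 1.22 CPM in resting and 3.94, 6.96 and 3.39 CPM in stimulated CD8+ cells, which rests on 3 against 35 counts. That is a ratio of 6.27, with a 95% interval of 1.98 to 31.9 that covers counting error only. In CD4+ cells Atp6v0a1 measured 4.17, 2.58 and 1.03 CPM resting and 11.0, 5.35 and 4.95 CPM stimulated, a ratio of 2.6 (1.36 to 5.39). Its call in CD4+ cells was lost without resting library 2 (adjusted p = 0.0715), resting library 3 (0.196) or stimulated library 1 (0.154).

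The accessory subunit gene Atp6ap2, also known as the prorenin receptor, rose in both subsets. It went from 23.7, 14.2 and 10.8 CPM to 31.1, 32.1 and 24.8 CPM in CD4+ cells (0.87 ± 0.24, adjusted p = 0.00200) and from 17.0, 14.8 and 13.4 CPM to 26.8, 25.7 and 35.9 CPM in CD8+ cells (0.99 ± 0.25, adjusted p = 0.000679). Atp6v0d1, the d subunit that joins V0 to the stalk, rose in CD8+ cells from 5.67, 5.75 and 9.76 CPM to 17.3, 23.0 and 20.6 CPM (1.48 ± 0.28). In CD4+ cells Atp6v0d1 measured 14.2 ± 3.35 CPM resting and 18.4 ± 4.85 CPM stimulated and was not called (0.35 ± 0.24, adjusted p = 0.211). A difference between the subsets in this response was not established, since the test of the difference itself gave 1.13 ± 0.38 with an adjusted p of 0.140. Atp6v1f also rose in both subsets, by 0.73 in CD4+ and 0.91 in CD8+ cells on the log2 scale.

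The lysosome genes changed in opposite directions within single functional groups. Of the 6 proteases, Ctsz, the carboxypeptidase cathepsin Z, rose from 4.87, 5.16 and 5.14 CPM to 32.4, 38.3 and 36.3 CPM in CD4+ cells (2.81 ± 0.28, adjusted p = 2.09e-11). In CD8+ cells Ctsz rose from 5.67, 4.93 and 3.05 CPM to 46.5, 56.7 and 43.8 CPM (3.43 ± 0.29, adjusted p = 2.23e-13). The resting and stimulated libraries of Ctsz were separated in both subsets. Ctsd went the other way, from 55, 60.0 and 50.3 CPM to 22.7, 26.3 and 30.5 CPM in CD4+ cells (-1.02 ± 0.18, adjusted p = 2.94e-06). In CD8+ cells Ctsd fell from 66.0, 59.1 and 54.3 CPM to 34.7, 33.7 and 41.3 CPM (-0.69 ± 0.17, adjusted p = 0.000508). Neither fall of Ctsd passed the test with Rn45s kept in the totals, and its CD8+ value turned to 0.10. Gm49369 shares 34.4% of the exon bases of Ctsd on the same strand, so its counts may be incomplete. Ctsb, cathepsin B, rose in both subsets (1.28 ± 0.20 in CD4+ and 0.99 in CD8+ cells).

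Among enzymes that degrade sugar chains, Gusb, which encodes beta-glucuronidase, rose from 6.96, 11.0 and 11.8 CPM to 47.4, 46.8 and 47.3 CPM in CD4+ cells (2.22 ± 0.21, adjusted p = 3.13e-12). Gusb rose in CD8+ cells from 14.2, 17.2 and 18.3 CPM to 41.0, 39.6 and 47.2 CPM (1.36 ± 0.20). Gaa, the acid alpha-glucosidase that degrades glycogen in the lysosome, measured 6.38, 14.8 and 9.76 CPM in resting and 31.1, 34.3 and 26.0 CPM in stimulated CD8+ cells (1.57 ± 0.26, adjusted p = 1.39e-06). For both genes the stimulated libraries were all the higher ones. In CD4+ cells Gaa measured 16.0, 11.0 and 16.9 CPM resting and 25.3, 26.3 and 19.8 CPM stimulated (0.66 ± 0.24, adjusted p = 0.0150). That call was lost without resting library 2 (adjusted p = 0.0906) or stimulated library 2 (0.0533).

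Of the 5 tested membrane proteins and activators, 1 was higher and 3 lower in CD4+ cells, and 1 was higher and 2 lower in CD8+ cells. Scarb2, which encodes LIMP-2, the receptor that carries glucocerebrosidase to lysosomes, fell from 57.0, 59.4 and 53.4 CPM to 29.8, 23.2 and 15.4 CPM in CD4+ cells (-1.38 ± 0.21, adjusted p = 2.17e-07). In CD8+ cells Scarb2 fell from 78.0, 78.8 and 66.5 CPM to 24.8, 26.8 and 25.5 CPM (-1.53 ± 0.20, adjusted p = 8.99e-09). Psap fell from 129, 129 and 128 CPM to 55.1, 57.9 and 57.0 CPM in CD4+ cells (-1.18 ± 0.15), with libraries of each culture close together. Psap also fell in CD8+ cells, from 182, 148 and 145 CPM to 66.2, 85.6 and 67.0 CPM (-1.12 ± 0.14, adjusted p = 7.37e-09). Mcoln1, the calcium channel TRPML1 of the lysosomal membrane, fell in CD4+ cells from 18.1, 18.1 and 25.2 CPM to 7.78, 5.79 and 6.33 CPM (-1.66 ± 0.29, adjusted p = 4.74e-06). In CD8+ cells Mcoln1 measured 13.3 ± 2.06 CPM resting and 9.05 ± 2.89 CPM stimulated and was not called (-0.52 ± 0.30, adjusted p = 0.135). Lamp1, the abundant membrane glycoprotein that marks lysosomes, rose in CD4+ cells, from 33.4, 31.6 and 21.6 CPM to 39.6, 43.2 and 50.4 CPM (0.66 ± 0.20, adjusted p = 0.00436). Its call was lost without resting library 3 (adjusted p = 0.0646). In CD8+ cells Lamp1 measured 31.9, 27.9 and 29.3 CPM resting and 24.8, 35.9 and 41.3 CPM stimulated, which overlap. The higher member in CD8+ cells was Lamp2, a membrane glycoprotein related to Lamp1 (0.59 ± 0.23, adjusted p = 0.0233), a call lost without resting library 3 (adjusted p = 0.101) or stimulated library 2 (0.0869). The CD8+ falls of Scarb2 (adjusted p = 0.0925) and Psap (0.444) did not pass the test with Rn45s kept in the totals.

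Of the 6 tested autophagy initiation genes, 5 were lower in CD4+ and 4 in CD8+ cells and none was higher, where 32.5% and 30.8% of all genes were lower. Rb1cc1, which encodes FIP200, the scaffold of the Ulk kinase complex, fell from 88.3, 74.2 and 77.5 CPM to 16.9, 20.1 and 17.6 CPM in CD4+ cells (-2.13 ± 0.17, adjusted p = 1.65e-14). In CD8+ cells Rb1cc1 fell from 58.2, 63.2 and 68.9 CPM to 21.3, 21.4 and 17.0 CPM (-1.69 ± 0.17, adjusted p = 1.63e-11). These falls kept their calls under every alternative run. Ulk2, a kinase of the same complex, fell from 34.8, 35.5 and 32.4 CPM to 5.84, 8.02 and 7.98 CPM in CD4+ cells (-2.18 ± 0.26, adjusted p = 2.12e-09). In CD8+ cells Ulk2 fell from 27.0, 42.7 and 29.3 CPM to 15.8, 11.2 and 9.05 CPM (-1.46 ± 0.25). Its libraries did not overlap in either subset. With Rn45s kept in the totals the CD8+ call of Ulk2 was lost (adjusted p = 0.157). The other calls were less stable. Ulk1, Uvrag and Wipi2 lost theirs in CD4+ cells with Rn45s kept (adjusted p = 0.520, 0.504 and 0.518), without a low-count filter (0.211, 0.130 and 0.0803) and without resting library 3 (0.121, 0.0593 and 0.127), among other alternatives. In CD8+ cells Uvrag (0.977) and Wipi2 (0.620) lost theirs with Rn45s kept, where the value of Wipi2 turned to 0.24.

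The Atg8 family, whose proteins are attached to the autophagosome membrane, split by member. Map1lc3b, the gene of LC3B, fell from 45.2, 42.6 and 33.4 CPM to 16.9, 12.0 and 10.7 CPM in CD4+ cells (-1.66 ± 0.24, adjusted p = 7.59e-08). In CD8+ cells Map1lc3b fell from 42.6, 36.1 and 36.6 CPM to 11.0, 8.56 and 15.0 CPM (-1.68 ± 0.24, adjusted p = 7.94e-08). Gabarapl1 moved in the opposite direction from a level near 0. It measured 0.696, 0.645 and 1.03 CPM in resting and 9.73, 12.5 and 16.0 CPM in stimulated CD4+ cells, which is 4 counts against 101. In CD8+ cells Gabarapl1 measured 0, 1.64 and 0.610 CPM resting and 18.5, 21.4 and 18.1 CPM stimulated, which is 3 counts against 151. The ratios were 16.8 (95% interval 6.36 to 62.8) and 27.0 (9.08 to 133), where the intervals cover counting error only. The opposite-strand gene 1700101I11Rik covers 28.3% of the exon bases of Gabarapl1, and the strand setting of the counts is not given in the sources used here. Gabarap measured 57.7, 43.2 and 32.4 CPM resting and 29.8, 37.0 and 24.5 CPM stimulated in CD4+ cells (-0.55 ± 0.19, adjusted p = 0.0115), with overlap. That call was lost without resting library 1 (adjusted p = 0.192) or stimulated library 3 (0.132). In CD8+ cells Gabarap measured 41.1, 35.3 and 34.8 CPM resting and was not called on stimulation (-0.40 ± 0.20, adjusted p = 0.0749). Gabarapl2 stayed between 3.21 and 13.1 CPM in all 27 libraries and was not called in any stimulation comparison. Its levels were 11.1, 9.68 and 9.76 CPM resting and 11.0, 8.02 and 9.36 CPM stimulated in CD4+ cells, and 8.51, 9.03 and 5.49 CPM and 6.70, 3.21 and 9.33 CPM in CD8+ cells. Sqstm1 went from 49.4, 64.5 and 53.9 CPM to 40.9, 45.5 and 41.0 CPM in CD4+ cells (-0.40 ± 0.16, adjusted p = 0.0260) and from 58.2, 57.5 and 50 CPM to 36.3, 46.0 and 35.6 CPM in CD8+ cells (-0.50 ± 0.16, adjusted p = 0.00681). Neither Sqstm1 call held with Rn45s kept in the totals, and the CD8+ value turned to 0.27. The CD4+ call of Sqstm1 was also lost without resting library 2 (adjusted p = 0.179), stimulated library 1 (0.0783) or stimulated library 3 (0.0930).

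The transcription factor genes had low RNA levels. Tfe3 rose in CD8+ cells, from 5.67, 9.03 and 8.54 CPM to 14.6, 14.5 and 13.6 CPM (0.87 ± 0.30, adjusted p = 0.0103), a call lost without resting library 1 (adjusted p = 0.0655). In CD4+ cells Tfe3 measured 11.1, 10.3 and 11.8 CPM resting and 16.2, 16.5 and 17.1 CPM stimulated, which do not overlap, but it missed the threshold (0.58, adjusted p = 0.0541). Tfeb lay between 1.18 and 11.8 CPM in all 27 libraries and was not called in any comparison. In WT CD4+ cells Tfeb measured 4.17, 3.23 and 11.8 CPM resting and 9.08, 5.35 and 2.75 CPM stimulated (-0.35 ± 0.49), a range too wide to place a direction. In WT CD8+ cells Tfeb measured 5.67, 4.11 and 1.83 CPM resting and 1.18, 2.68 and 3.11 CPM stimulated, which overlap. The RNA level of these genes does not report where the proteins are in the cell.

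**Figure D2:**
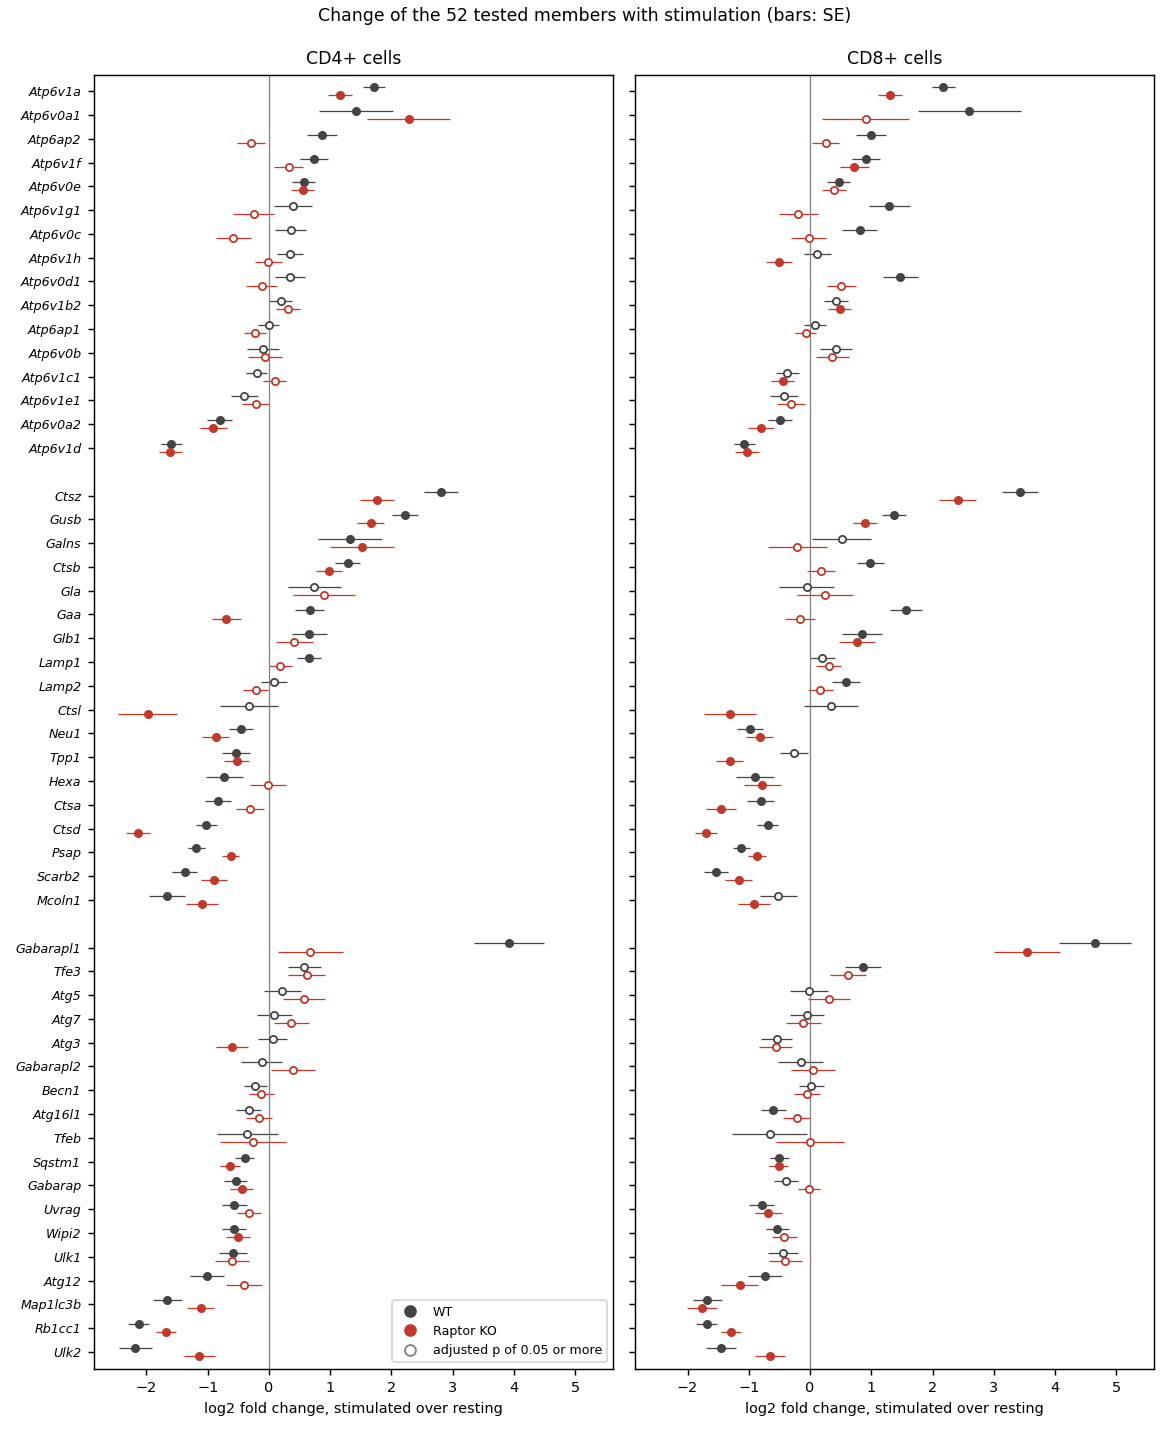
Log2 fold change of stimulated against resting cells (x axis, points with SE) for the 52 tested members (y axis, grouped by class) in CD4+ and CD8+ cells, WT in grey and Raptor KO in red, with open symbols where the adjusted p is 0.05 or more. Atp6v1a and Ctsz lie on the right and Atp6v1d, Rb1cc1 and Map1lc3b on the left in both subsets and genotypes.

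Whether WT CD8+ and WT CD4+ cells responded differently was tested as an interaction. No member was called, against 1.00% of all genes with a more positive and 0.438% with a more negative response in CD8+ cells. By an unadjusted p, 5 members were under 0.05, and DESeq2 also called 0. This does not show that the responses were equal. The share of all genes under an unadjusted p of 0.05 is not given here or below, so such counts cannot be read as many or few. Ahead of stimulation and after it, no member was called between the WT subsets. In resting cells 1.59% of all genes were higher and 1.73% lower in CD8+ than in CD4+ cells, 8 members had an unadjusted p under 0.05, and DESeq2 called 0. In stimulated cells 3.08% of all genes were higher and 2.11% lower, 9 members had an unadjusted p under 0.05, and DESeq2 called 0. The member nearest the threshold among resting cells was Atp6v0d1, with 7.06 ± 2.34 CPM in CD8+ and 14.2 ± 3.35 CPM in CD4+ cells (-0.97 ± 0.31, adjusted p = 0.0727).

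In Raptor KO CD4+ cells 7 members were called higher and 17 lower after stimulation, while 27.9% of all genes were called higher and 24.1% lower. In Raptor KO CD8+ cells 7 were higher and 19 lower, while 29.5% of all genes were called higher and 26.0% lower. With Rn45s kept in the totals the split in CD8+ cells was 6 higher and 5 lower. Falls outnumbered rises among the lysosome genes (4 higher and 8 lower in CD4+, 3 higher and 9 lower in CD8+) and the autophagy genes (0 higher and 7 lower, 1 higher and 6 lower), while with Rn45s kept the CD8+ counts were 3 higher and 3 lower and 1 higher and 2 lower. The pump genes were nearly even, with 3 higher and 2 lower in CD4+ and 3 higher and 4 lower in CD8+ cells. Atp6v1a rose from 16.0, 17.6 and 13.3 CPM to 37.0, 37.2 and 32.6 CPM in Raptor KO CD4+ cells (1.16 ± 0.20) and from 18.9, 18.9 and 15.2 CPM to 54.4, 43.9 and 37.2 CPM in CD8+ cells (1.31 ± 0.20). Atp6v1d fell from 39.4, 42.2 and 40.7 CPM to 11.4, 14.5 and 14.2 CPM in CD4+ cells (-1.61 ± 0.19), and Rb1cc1 fell from 90.1, 79.1 and 103 CPM to 29.1, 26.2 and 29.3 CPM (-1.67 ± 0.16). Neither gene's libraries overlapped.

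The same genes fell in Raptor KO CD8+ cells. Rb1cc1 went from 72.0, 75.0 and 66.8 CPM to 29.3, 24.0 and 33.3 CPM (-1.295 ± 0.17), and Atp6v1d from 31.7, 32.4 and 25.0 CPM to 13.4, 16.7 and 13.7 CPM (-1.03 ± 0.20). Atp6v0a2 fell from 39.4, 46.0 and 49.3 CPM to 26.8, 22.1 and 22.7 CPM in Raptor KO CD4+ (-0.91 ± 0.21) and from 44.5, 48.0 and 47.2 CPM to 33.5, 30.8 and 18.4 CPM in Raptor KO CD8+ cells (-0.80 ± 0.21). None of these genes overlapped between cultures, and with Rn45s kept the CD8+ calls of Atp6v1d (adjusted p = 0.162) and Atp6v0a2 (0.320) were lost. Atp6v0a1 was at 4.01, 0.535 and 0 CPM in resting and 7.98, 8.96 and 6.14 CPM in stimulated Raptor KO CD4+ cells, which is 7 against 40 counts and a ratio of 4.99 (2.21 to 13.2).

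Of the autophagy genes, Map1lc3b fell from 46.7, 48.1 and 46.9 CPM to 21.1, 18.6 and 25.0 CPM in Raptor KO CD4+ (-1.11 ± 0.22) and from 45.8, 33.8 and 52.6 CPM to 5.02, 18.3 and 12.9 CPM in Raptor KO CD8+ cells (-1.76 ± 0.25, adjusted p = 7.71e-08). Ulk2 fell from 34.7, 33.7 and 29.7 CPM to 14.2, 11.7 and 17.9 CPM in Raptor KO CD4+ cells (-1.14 ± 0.25). Both genes were separated between cultures. Sqstm1 fell from 56.1, 57.8 and 71.9 CPM to 35.3, 42.0 and 42.0 CPM in Raptor KO CD4+ (-0.63 ± 0.16) and from 58.0, 67.6 and 63.3 CPM to 47.7, 52.3 and 33.7 CPM in Raptor KO CD8+ cells (-0.52 ± 0.16). Both Sqstm1 calls were lost with Rn45s kept (adjusted p = 0.138 and 0.689), and the CD8+ one also without a low-count filter (0.0530) or without stimulated library 3 (0.129). Gabarap fell in Raptor KO CD4+ cells, from 48.1, 54.5 and 64.1 CPM to 40.4, 35.8 and 44.9 CPM (-0.45 ± 0.19, adjusted p = 0.0409), a call lost when any of 4 libraries was left out (0.0784 to 0.181), with DESeq2 (0.0614), without a filter (0.119) or with Rn45s kept (0.302). In Raptor KO CD8+ cells Gabarap measured 51.2, 63.5 and 41.0 CPM resting, which overlaps with its stimulated libraries.

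Lamp1, Tfe3, Tfeb and Gabarapl2 were not called between the Raptor KO cultures. Lamp1 measured 48.1, 41.7 and 47.7 CPM resting and 42.7, 44.1 and 67.5 CPM stimulated in CD4+, and 43.3, 36.5 and 26.7 CPM and 40.2, 39.7 and 52.1 CPM in CD8+ cells. Tfe3 measured 9.35, 6.95 and 10.2 CPM resting and 16.0, 11.0 and 12.8 CPM stimulated in CD4+, and 11.0, 4.73 and 11.6 CPM and 20.1, 12.0 and 11.4 CPM in CD8+ cells. The cultures overlapped for both genes except for Tfe3 in CD4+ cells. Tfeb measured 5.34, 5.35 and 6.25 CPM resting and 8.54, 2.07 and 3.31 CPM stimulated in CD4+, and 5.49, 4.73 and 4.46 CPM and 4.19, 5.23 and 5.10 CPM in CD8+ cells. Gabarapl2 measured 10.0, 5.35 and 7.82 CPM resting and 6.27, 13.1 and 10.9 CPM stimulated in CD4+, and 12.2, 10.1 and 5.35 CPM and 10.0, 8.36 and 11.0 CPM in CD8+ cells. These low levels overlapped in both subsets.

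Of the 6 lysosomal proteases, 2 were called higher and 3 lower after stimulation in Raptor KO CD4+ cells, the same counts as in WT CD4+ cells. Ctsd fell from 66.8, 75.4 and 67.2 CPM to 16.5, 18.6 and 13.2 CPM in Raptor KO CD4+ cells (-2.13 ± 0.19, adjusted p = 2.42e-12). In Raptor KO CD8+ cells Ctsd fell from 92.7, 77.0 and 55.3 CPM to 23.4, 24.0 and 22.7 CPM (-1.70 ± 0.18, adjusted p = 1.79e-10). Resting and stimulated libraries of Ctsd lay far apart in both. Ctsl, cathepsin L, fell in Raptor KO CD4+ cells from 11.3, 8.02 and 7.82 CPM to 0.570, 2.76 and 3.31 CPM (-1.98 ± 0.49, adjusted p = 0.000734), which is 42 against 12 counts. The antisense gene Gm47123 covers 26.8% of the exon bases of Ctsl. Ctsa, the protective protein cathepsin A, fell in Raptor KO CD8+ cells from 36.6, 37.2 and 31.2 CPM to 7.53, 16.2 and 12.9 CPM (-1.46 ± 0.24, adjusted p = 2.37e-06). Ctsa was also called lower in WT, from 29.9, 40.7 and 35.9 CPM to 20.8, 23.2 and 16.8 CPM in CD4+ cells. In WT CD8+ cells it fell from 28.4, 37 and 32.9 CPM to 17.7, 20.9 and 17.8 CPM. Both WT calls were lost with Rn45s kept (adjusted p = 0.226 and 0.938). Ctsb rose in Raptor KO CD4+ cells, from 36, 27.8 and 22.7 CPM to 66.1, 46.2 and 59 CPM, a call lost with Rn45s kept (0.0873). Ctsz still rose, from 5.34, 6.42 and 11.7 CPM to 28.5, 23.4 and 25.5 CPM in Raptor KO CD4+ (1.76 ± 0.29) and from 3.66, 8.78 and 4.46 CPM to 27.6, 42.9 and 21.2 CPM in Raptor KO CD8+ cells (2.41 ± 0.30). Gusb rose as well, from 8.68, 15.0 and 7.82 CPM to 33.6, 27.6 and 41.1 CPM in Raptor KO CD4+ (1.66 ± 0.22) and from 20.1, 20.9 and 19.6 CPM to 34.3, 41.3 and 36.9 CPM in Raptor KO CD8+ cells (0.89 ± 0.20). The stimulated libraries of Ctsz and Gusb were the higher ones throughout. Atp6v1f rose in Raptor KO CD8+ cells, from 19.5, 15.5 and 12.5 CPM to 27.6, 26.1 and 26.7 CPM (0.72 ± 0.24).

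Whether the response to stimulation itself differed between Raptor KO and WT was tested as an interaction in each subset, in which the 4 groups of that subset enter. In CD4+ cells 4 members had a more negative response in Raptor KO and 0 a more positive one, while 2.25% of all genes were called lower and 3.57% higher. In CD8+ cells 2 members had a more negative response and 0 a more positive one, while 1.19% of all genes were called lower and 1.70% higher. Gaa was called in both subsets. Its resting level was 16.0, 11.0 and 16.9 CPM in WT and 26.7, 21.4 and 37.5 CPM in Raptor KO CD4+ cells, and its stimulated level 25.3, 26.3 and 19.8 CPM in WT and 15.4, 16.5 and 19.4 CPM in Raptor KO. Gaa thus rose in WT and fell in Raptor KO (-0.70 ± 0.24, adjusted p = 0.0128), and the difference of the responses was -1.36 ± 0.34 (adjusted p = 0.0106). Its fall in Raptor KO CD4+ cells was lost without resting library 3 (adjusted p = 0.139) or stimulated library 1 (0.0559). In CD8+ cells Gaa went from 26.8, 22.3 and 20.5 CPM to 14.2, 20.9 and 25.1 CPM in Raptor KO, which was not called and overlaps, against its rise in WT. The difference of the responses there was -1.73 ± 0.35 (adjusted p = 0.00245).

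Ctsd was the other member called in both subsets, with a difference of -1.11 ± 0.26 (adjusted p = 0.00772) in CD4+ and -1.001 ± 0.25 (adjusted p = 0.0162) in CD8+ cells. By its group means, Ctsd started higher and ended lower in Raptor KO than in WT in both subsets. All 6 lysosomal proteases had a more negative response in Raptor KO CD8+ cells, with a median of -1.01, and 1 of them was called, while the median over all genes was 0.04. In CD4+ cells 2 of the 6 were positive and 4 negative, from -1.66 to 0.53. The CD8+ call of Ctsd was lost without stimulated WT library 3 (adjusted p = 0.0689) or resting Raptor KO library 1 (0.0787), which leaves 1 member called. Gabarapl1 had a difference of -3.25 ± 0.87 (adjusted p = 0.0188) in CD4+ cells. In Raptor KO CD4+ cells it measured 4.01, 3.21 and 2.35 CPM resting and 7.41, 0.689 and 6.61 CPM stimulated, which is 15 against 28 counts and a ratio of 1.63 (0.841 to 3.28), and the libraries overlap. In Raptor KO CD8+ cells Gabarapl1 still rose, from 0.610, 0.676 and 3.57 CPM to 16.7, 23.5 and 12.2 CPM (6 against 96 counts, ratio 12.0, 5.31 to 33.5). The CD4+ difference was lost without resting WT library 2 (adjusted p = 0.0503) or resting Raptor KO library 1 (0.0592). Atp6ap2 had a difference of -1.16 ± 0.33 (adjusted p = 0.0286) in CD4+ cells. It measured 28.0, 38.0 and 32.1 CPM in resting and 35.3, 17.2 and 26.9 CPM in stimulated Raptor KO CD4+ cells. Its call was lost when any of 5 libraries was left out: resting WT library 2 (adjusted p = 0.0741) or 3 (0.111), stimulated WT library 2 (0.0674), resting Raptor KO library 2 (0.0927) or stimulated Raptor KO library 2 (0.0928). Without resting WT library 2 the count in CD4+ cells fell to 2. With Rn45s kept in the totals the median difference of all genes moves to -0.35 for CD4+ and -0.43 for CD8+ cells, which leaves 1 and 0 members called.

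**Figure D3:**
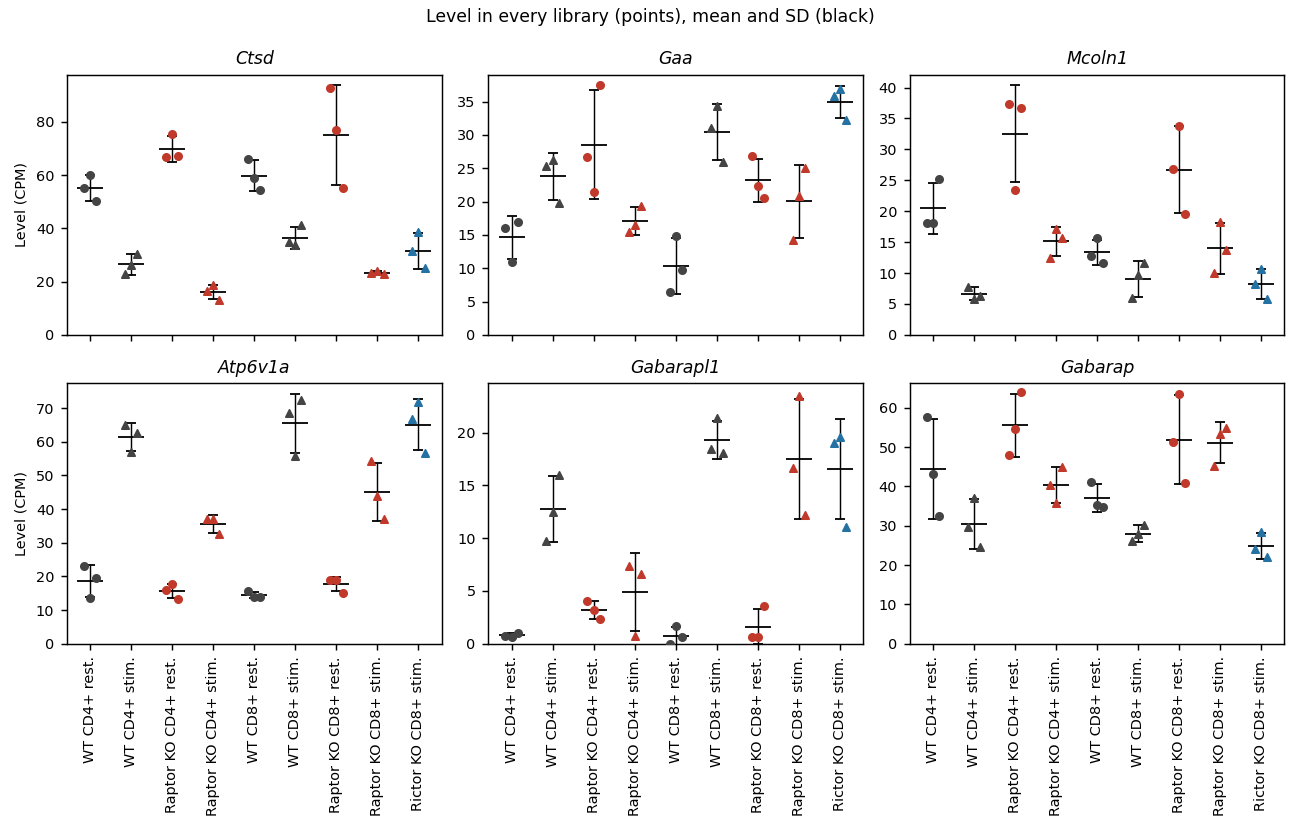
CPM (y axis) of Ctsd, Gaa, Mcoln1, Atp6v1a, Gabarapl1 and Gabarap in each library of the 9 groups (x axis), circles resting and triangles stimulated, grey WT, red Raptor KO and blue Rictor KO, with the mean and SD of 3. Ctsd in Raptor KO falls from 55.3 to 92.7 CPM to 13.2 to 24.0 CPM, and Gaa rises in WT but not in Raptor KO.

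Raptor KO and WT cells were next compared within stimulated CD4+ cells. There 7 members were higher and 4 lower in Raptor KO, while 8.82% of all genes were called higher and 8.56% lower. The libraries of the 2 genotypes did not overlap for any of the 11, which fixes the same sign within each of the 3 library codes. Without overlap were 7 of the 52 tested members on the higher side and 12 on the lower, against 17.1% and 16.3% of all genes. By class, the pump had 0 higher and 2 lower, the lysosome genes 4 higher and 1 lower, and the autophagy genes 3 higher and 1 lower. Mcoln1 differed most among those that were higher, with 12.5, 17.2 and 15.6 CPM in Raptor KO and 7.78, 5.79 and 6.33 CPM in WT (1.20 ± 0.31, adjusted p = 0.00436). Psap was at 96.8, 82.0 and 81.7 CPM in Raptor KO and at 55.1, 57.9 and 57.0 CPM in WT (0.61 ± 0.15, adjusted p = 0.00249). Hexa, the alpha subunit of beta-hexosaminidase, was at 11.4, 11.0 and 14.6 CPM against 6.49, 8.91 and 5.50 CPM (0.86 ± 0.30, adjusted p = 0.0379). On the log2 scale Mcoln1 and Psap had each fallen less on stimulation in Raptor KO than in WT, although the test of that difference did not call them. In CPM the mean fall of Mcoln1 was not smaller in Raptor KO. Resting CD4+ libraries of Mcoln1 measured 37.4, 23.5 and 36.7 CPM in Raptor KO and 18.1, 18.1 and 25.2 CPM in WT, which overlap. Ulk2 was at 14.2, 11.7 and 17.9 CPM against 5.84, 8.02 and 7.98 CPM (0.99 ± 0.30, adjusted p = 0.0165). Map1lc3b was at 21.1, 18.6 and 25.0 CPM against 16.9, 12.0 and 10.7 CPM (0.78 ± 0.25, adjusted p = 0.0269). Rb1cc1 was at 29.1, 26.2 and 29.3 CPM against 16.9, 20.1 and 17.6 CPM (0.63 ± 0.18, adjusted p = 0.0133). These 3 autophagy genes were among those that fell on stimulation in both genotypes. The remaining higher member was the peptidase gene Tpp1 (0.67 ± 0.22, adjusted p = 0.0294).

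The 4 lower members in stimulated Raptor KO CD4+ cells were Atp6v1a, Atp6v0c, Ctsd and Gabarapl1. Atp6v1a was at 37.0, 37.2 and 32.6 CPM in Raptor KO against 64.9, 57.0 and 62.5 CPM in WT (-0.79 ± 0.16, adjusted p = 0.000590), and this call held under all 14 alternatives run. Atp6v0c, the proteolipid of the V0 ring, was at 17.1, 17.9 and 13.2 CPM against 20.8, 23.6 and 40.7 CPM (-0.90 ± 0.26, adjusted p = 0.0131). Atp6v0c has 2 named pseudogenes that could share its reads. Ctsd was at 16.5, 18.6 and 13.2 CPM against 22.7, 26.3 and 30.5 CPM (-0.76 ± 0.20, adjusted p = 0.00722). Gabarapl1 was at 7.41, 0.689 and 6.61 CPM against 9.73, 12.5 and 16.0 CPM, which is 28 against 101 counts and a ratio of 0.386 (0.245 to 0.592). WT library 3 was the highest for Atp6v0c, Ctsd and Gabarapl1, and without it their adjusted p were 0.278, 0.0734 and 0.109. Without Raptor KO library 3, Atp6v0c (0.0764) and Ctsd (0.0606) were lost, and without Raptor KO library 2, Gabarapl1 (0.115). The count of 11 fell to 4 without WT library 3 and to 6 without Raptor KO library 3.

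Among the higher members, Mcoln1 and Psap kept their call without any single library. DESeq2 did not call Tpp1 (adjusted p = 0.0821), Hexa (0.0891), Rb1cc1 (0.0570) or Map1lc3b (0.0609). The fit without a low-count filter lost the same 4 (0.123, 0.200, 0.112 and 0.0594), the fit of the compared groups alone lost Tpp1 (0.0562) and Hexa (0.0587), and DESeq2 size factors lost Hexa (0.0502). Ulk2 was lost without WT library 1 (adjusted p = 0.0582) or Raptor KO library 3 (0.117), and Rb1cc1 without WT library 3 (0.0684). Map1lc3b was lost without WT library 2 (0.0789), WT library 3 (0.173), Raptor KO library 1 (0.0610) or Raptor KO library 3 (0.135). Hexa was lost without WT library 1 (0.0851) or 3 (0.224) and without Raptor KO library 1 (0.0654), 2 (0.0570) or 3 (0.173). Tpp1 was lost without WT library 1 (0.148) or 3 (0.122) and without Raptor KO library 1 (0.136) or 3 (0.0580). With Rn45s kept in the totals, the median of all genes moves to -0.46, no member is higher and 4 are lower. Protein-coding genes held 38.92%, 55.54% and 63.56% of the counts other than Rn45s in the WT libraries and 39.48%, 33.43% and 46.48% in Raptor KO. The 9 B cell markers, of which none was at 0, summed to 35.9, 61.4 and 24.1 CPM in Raptor KO and 19.5, 22.7 and 23.9 CPM in WT. The part of either in these differences was not tested.

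In stimulated CD8+ cells 2 members were higher and 4 lower in Raptor KO, while 6.30% of all genes were called higher and 5.42% lower. For none of the 6 did the genotypes overlap, which fixes the sign within each library code. Without overlap were 4 of the 52 tested members on the higher side and 7 on the lower, against 15.5% and 14.3% of all genes. Gabarap was the most clearly higher, with 45.2, 53.3 and 54.9 CPM in Raptor KO against 26.0, 27.8 and 30.3 CPM in WT (0.87 ± 0.18, adjusted p = 0.000935). It kept its call without any single library. Rb1cc1 was at 29.3, 24.0 and 33.3 CPM against 21.3, 21.4 and 17.0 CPM (0.56 ± 0.18, adjusted p = 0.0301). The 4 lower members were 3 proteases and the pump subunit Atp6v1a. Ctsb was at 36.8, 26.1 and 33.7 CPM in Raptor KO against 52.4, 49.8 and 58.3 CPM in WT (-0.75 ± 0.20, adjusted p = 0.0109). Ctsz was at 27.6, 42.9 and 21.2 CPM against 46.5, 56.7 and 43.8 CPM (-0.68 ± 0.20, adjusted p = 0.0178). Ctsd was at 23.4, 24.0 and 22.7 CPM against 34.7, 33.7 and 41.3 CPM (-0.66 ± 0.18, adjusted p = 0.0140). All 6 proteases had a negative log2 fold change, with a median of -0.60, while the median of all genes was 0.03. Atp6v1a was at 54.4, 43.9 and 37.2 CPM against 68.6, 55.7 and 72.4 CPM (-0.57 ± 0.16, adjusted p = 0.0117). Ctsd and Atp6v1a were thus called lower, and Rb1cc1 higher, in Raptor KO cells of both subsets after stimulation. The CD8+ call of Rb1cc1 did not hold with DESeq2 size factors (adjusted p = 0.0531), without a low-count filter (0.212), in the compared groups alone (0.0846) or with DESeq2 (0.107), and that of Ctsz was lost in the compared groups alone (0.0542).

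The calls in stimulated CD8+ cells rested on few libraries. Without WT library 3, Ctsb (adjusted p = 0.0601), Ctsd (0.103), Atp6v1a (0.0812) and Rb1cc1 (0.194) were lost, and 2 members remained called. Without Raptor KO library 3, Ctsd (0.0673), Atp6v1a (0.121), Ctsz (0.229) and Rb1cc1 (0.249) were lost, and 2 remained called. Ctsb was also lost without Raptor KO library 2 (0.0781), Ctsz without WT library 2 (0.0790) or Raptor KO library 1 (0.0618), and Rb1cc1 without WT library 1 (0.0501) or Raptor KO library 1 (0.0660). With Rn45s kept in the totals the median of all genes moves to -0.49, 0 members are higher and 1 is lower. Protein-coding genes held 52.85%, 49.87% and 62.53% of the counts other than Rn45s in the WT libraries and 31.8%, 47.19% and 47.83% in Raptor KO. Markers listed for other cell types were also measured: the 9 B cell markers summed to 53.6, 48.1 and 9.80 CPM in Raptor KO and 20.5, 28.9 and 26.3 CPM in WT. The 14 myeloid markers summed to 10.9, 5.75 and 4.31 CPM against 1.58, 2.68 and 2.83 CPM, without overlap, with 4 of them at 0 in Raptor KO and 8 in WT. The 6 dendritic cell markers summed to 12.6, 14.1 and 11.4 CPM against 5.52, 6.96 and 6.79 CPM. The 5 NK cell markers summed to 33.5, 53.8 and 25.9 CPM against 13.8, 16.1 and 22.1 CPM. Ncr1 and Klra8 were at 0 in both and Klrb1c in WT, so the WT sum came from Klre1 and Eomes. In CD4+ libraries the same markers summed to 0.446 to 3.85 CPM. Which cells carried these markers is not shown by a sum. The part of these values in the member differences was not tested. Whether the Raptor KO difference itself differed between the 2 stimulated subsets was tested directly. No member was called, against 0.172% of all genes higher and 0.162% lower in CD8+ cells. By an unadjusted p 3 members were under 0.05, and DESeq2 called 0.

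**Figure D4:**
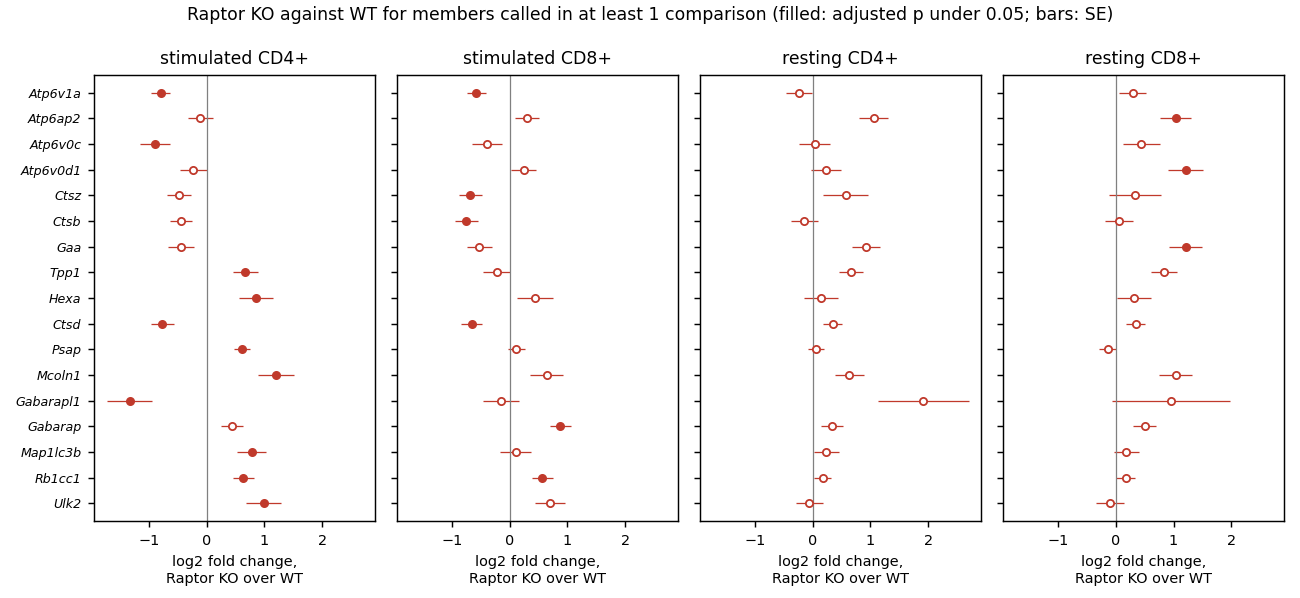
Log2 fold change of Raptor KO against WT (x axis, points with SE) for the 17 members called in at least 1 Raptor comparison (y axis), in 4 panels for resting and stimulated CD4+ and CD8+ cells, with filled points where the adjusted p is under 0.05. Mcoln1, Ulk2 and Psap lie to the right and Atp6v1a and Ctsd to the left in stimulated CD4+ cells.

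In resting cells few members were called. In resting CD4+ cells no member was called, while 0.0953% of all genes were higher and 0.0477% lower in Raptor KO. By an unadjusted p 12 members were under 0.05, a cut for which no share of all genes is given, and DESeq2 called 0. Without overlap in resting CD4+ cells were 11 of the 52 tested members on the higher side, 8 of them lysosome genes, and 5 on the lower. Of all genes, 5.33% were higher and 6.94% lower without overlap there. In resting CD8+ cells 3 members were higher and 0 lower, while 0.505% of all genes were called higher and 0.619% lower. Atp6v0d1 was at 15.9, 16.2 and 18.7 CPM in Raptor KO against 5.67, 5.75 and 9.76 CPM in WT (1.21 ± 0.31, adjusted p = 0.0363). Atp6ap2 was at 29.9, 33.8 and 28.5 CPM against 17.0, 14.8 and 13.4 CPM (1.03 ± 0.26, adjusted p = 0.0379). Gaa was at 26.8, 22.3 and 20.5 CPM against 6.38, 14.8 and 9.76 CPM (1.21 ± 0.28, adjusted p = 0.0181). For each of the 3 the lowest Raptor KO library was above the highest WT library. Without overlap were 11 of the 52 tested members on the higher side and 3 on the lower, against 6.87% and 7.34% of all genes. Mcoln1 was at 26.8, 33.8 and 19.6 CPM against 12.8, 15.6 and 11.6 CPM, again without overlap, and missed the threshold (1.04 ± 0.28, adjusted p = 0.0548). Over the 52 tested members 39 had a positive log2 fold change, with a median of 0.27, while the median of all genes was 0.00. In resting CD4+ cells the same genes had values that were not called: 0.23 ± 0.26 (adjusted p = 0.898) for Atp6v0d1, whose libraries overlapped there, 1.05 ± 0.25 (0.0798) for Atp6ap2, 0.92 ± 0.25 (0.171) for Gaa and 0.63 ± 0.25 (0.445) for Mcoln1. The count of 3 fell to between 0 and 2 when 1 library was left out, and it was 0 without WT library 1. It was 1 without WT library 2 or 3 and without Raptor KO library 1 or 2, and the 1 without Raptor KO library 1 was a lower member. Gaa was lost without WT library 1 (adjusted p = 0.194), WT library 3 (0.0812) or Raptor KO library 1 (0.106). Atp6v0d1 was lost without WT library 1 (0.206) or 2 (0.168) or any Raptor KO library (0.0660, 0.0888 and 0.145), and Atp6ap2 without any library of either genotype (0.0805 to 0.160). No member was called with Rn45s kept in the totals. With DESeq2, Atp6v0d1 (0.0720) and Atp6ap2 (0.0613) were lost, and Atp6v0d1 was also lost without a filter (0.0510) and in the compared groups alone (0.0879). The 14 myeloid markers summed to 23.2, 27.7 and 11.6 CPM in Raptor KO and 8.51, 10.7 and 9.15 CPM in WT resting CD8+ cells. Cd14, Clec7a and Adgre1 were at 0 in Raptor KO, and Cd14, Fcer1g, Spi1 and Clec7a in WT. The 6 erythroid, platelet and stromal markers with a row summed to 40.3, 33.8 and 30.3 CPM against 58.9, 82.1 and 75.0 CPM, and the 5 NK cell markers to 5.49, 6.08 and 3.57 CPM against 16.3, 13.1 and 16.5 CPM. Of these, Pf4 was at 0 in Raptor KO, Hba-a1 in WT, and Klre1 and Klra8 in both. The sums do not show which cells carried them. The part of these markers was not tested.

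In stimulated CD8+ cells of Rictor KO mice, Rictor being a subunit of mTORC2, no member was called against WT, while 0.105% of all genes were higher and 0.0572% lower. By an unadjusted p 2 members were under 0.05, Atg12 (-0.59 ± 0.28) and Gusb (0.32 ± 0.16), and DESeq2 called 0. Ctsd was at 31.4, 38.5 and 25.0 CPM in Rictor KO and 34.7, 33.7 and 41.3 CPM in WT. Gabarap was at 24.1, 28.4 and 22.1 CPM against 26.0, 27.8 and 30.3 CPM, and Atp6v1a at 66.9, 71.7 and 56.8 CPM against 68.6, 55.7 and 72.4 CPM. The libraries of the 2 genotypes overlapped for all 3 genes. In Rictor KO, Lamp1 was at 36.5, 40.1 and 37.1 CPM, Sqstm1 at 33.6, 39.8 and 34.7 CPM and Tfe3 at 13.3, 11.9 and 13.5 CPM. Tfeb was at 2.22, 6.64 and 3.85 CPM, Map1lc3b at 13.6, 11.1 and 14.9 CPM, Gabarapl1 at 19.0, 19.6 and 11.1 CPM and Gabarapl2 at 6.34, 5.04 and 4.81 CPM. None of these was called against WT. All Rictor KO libraries carry the library code StP219, while the WT libraries carry 3 codes, so code and genotype are partly confounded. A missed threshold does not show that the levels were equal.

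Other genes of the same pathways, which are not members, were listed for context, and 81 of 104 were tested. After stimulation 8 were higher and 42 lower in WT CD4+ cells, where 32.4% of all genes were higher and 32.5% lower. In WT CD8+ cells 8 were higher and 32 lower, against 32.0% and 30.8% of all genes. The autophagy receptor gene Calcoco1 fell from 24.3 ± 5.18 to 1.78 ± 0.991 CPM in WT CD4+ cells (-3.58 ± 0.41). Bnip3, a receptor for the removal of mitochondria, was at 0 CPM in all resting WT CD4+ libraries and at 5.26 ± 2.28 CPM in the stimulated ones. Acp5, an acid phosphatase of lysosomes, fell from 54.6 ± 3.92 to 4.53 ± 0.748 CPM in WT CD8+ cells (-3.54 ± 0.29). In Raptor KO against WT, 7 were higher and 4 lower in stimulated CD4+ cells (8.82% and 8.56% of all genes), and 2 higher and 6 lower in stimulated CD8+ cells (6.30% and 5.42%). Ctss, the protease cathepsin S, was at 34.5 ± 4.13 CPM in Raptor KO and 13.7 ± 3.17 CPM in WT stimulated CD4+ cells (1.29 ± 0.24, adjusted p = 0.000181). Npc2, which hands on cholesterol in the lysosome, was at 165.8 ± 26.3 CPM against 72.7 ± 13.8 CPM in stimulated CD8+ cells (1.19 ± 0.15, adjusted p = 1.74e-07). Gm2a, an activator of ganglioside breakdown, was lower in Raptor KO in both stimulated subsets (-0.69 ± 0.18 and -1.24 ± 0.18). By likeness of pattern, measured as Pearson's r over the 9 group means on the log2 CPM scale, the genes nearest to the autophagy class were Calcoco1 (0.963), Wdr45 (0.955) and Tax1bp1 (0.955). Nearest to the pump were Tmem41b (0.777), Pla2g15 (0.74) and Igf2r (0.716), and Cln3 (0.64) and Galc (0.588) were among those nearest to the lysosome class. The 9 means share culture and genotype, and the values are a description.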

How the data were processed

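Gene expression was measured by RNA sequencing of total RNA in 27 libraries, 9 groups of 3 taken from the labels. The submitters' processing notes name STAR 2.6.0a and GRCm38. How reads were counted, and with which strand setting, is not given in the sources used here. As deposited by the authors, the data are 1 table of read counts per gene for all libraries, and 26765 of its 26802 genes matched the reference annotation. Overlapping genes and pseudogenes could therefore split or lose reads.

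Rn45s was left out before scaling. edgeR 4.0.16 in R 4.3.3 was used with its filter by group (minimum count 10, minimum total 15), TMM factors and robust quasi-likelihood tests, fitting the 9 group means to all 27 libraries, with Benjamini-Hochberg adjustment over 10493 genes at 0.05. The common biological coefficient of variation was 0.187. CPM, fold changes and sums were computed from these counts. The 15 comparisons were 11 between groups and 4 of differences between effects. Alternatives were DESeq2 size factors, TMM on protein-coding genes, Rn45s kept in the totals without TMM, no low-count filter, a filter of over 5 CPM in 3 or more libraries, the Wald test of DESeq2 1.42.0, the compared groups alone, a block for the library code, and each library left out.

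Values in every library are given for Lamp1, Ctsd, Sqstm1, Tfeb, Tfe3 and the Atg8 family (for Map1lc3a, which was not tested, as a range), and for the 2 largest called changes per direction, class and comparison between groups. Other members are named where a count or a threshold is described. The single values of some genes outside the member list are not reported here. Members, lists and tests were chosen with earlier results of these data known.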

Additional observations from a re-analysis of the deposited data

Results flagged for a closer look

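In 6 cases a member's response to stimulation differed between Raptor KO and WT cells by the test of the difference itself. In CD4+ cells the differences in log2 fold change, Raptor KO minus WT, were -1.163 for Atp6ap2, -1.112 for Ctsd, -1.361 for Gaa and -3.246 for Gabarapl1. In CD8+ cells they were -1.001 for Ctsd and -1.732 for Gaa. All 6 were negative. The value for Gabarapl1 comes from few counts, 4 in resting WT and 15 in resting Raptor KO CD4+ cells.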

How the results depend on the processing

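Of 140 member calls, 50 held under every alternative run. Keeping Rn45s in the totals moved most counts of called members: to 17 for stimulation in WT CD4+, 13 in Raptor KO CD4+ and 11 in Raptor KO CD8+ cells, to 4 and 1 for Raptor KO against WT in stimulated CD4+ and CD8+ cells, to 0 in resting CD8+ cells, and to 1 and 0 for the difference of responses in CD4+ and CD8+ cells. Under it 6 falls of WT CD8+ stimulation turned positive without a call: Atp6v0a2 0.25, Ctsd 0.10, Wipi2 0.24, Atg12 0.0453, Atg16l1 0.18 and Sqstm1 0.27. DESeq2 gave 7 in stimulated CD4+ and 1 in resting CD8+ Raptor KO cells. Without a filter, resting CD4+ Raptor KO cells had 1 call. In the fit of the compared groups alone, CD8+ against CD4+ in stimulated WT cells had 1. The cause of these shifts was not tested.

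Leaving out each library gave 24 to 28 calls for stimulation in WT CD4+, 27 to 32 in WT CD8+, 19 to 23 in Raptor KO CD4+ and 22 to 25 in Raptor KO CD8+ cells. For Raptor KO against WT it gave 4 to 10 in stimulated CD4+, 2 to 6 in stimulated CD8+, 0 to 1 in resting CD4+ and 0 to 2 in resting CD8+ cells, and for the difference of responses 2 to 4 and 1 to 3. It gave 0 to 1 between the WT subsets in either culture and 0 for Rictor KO and the other differences.

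With the library code as a block (it matches the library number except in Rictor KO, whose libraries share 1 code), counts changed by over 1.5 times in 3 comparisons: 6 (5 higher, 1 lower) in resting CD8+ and 1 in resting CD4+ Raptor KO cells, and 1 for CD8+ against CD4+ in stimulated WT cells. Deviations of same-numbered libraries correlated at -0.0202 to 0.367, and no comparison had all its pairs over 0.1, so the numbers were not taken as pairs. This rule does not show that the code is without effect. Between stimulated Raptor KO and WT CD4+ cells, library 3 correlated at 0.323 and best with its own number, while library 2, at 0.0385, did not. With the block, 1101 genes were called higher and 1020 lower in that comparison, against 925 and 898 without it. Every library correlated best with its own number in 2 of 10 comparisons, CD8+ against CD4+ in resting WT cells and stimulation in WT CD4+ cells. In the other comparisons 1 or 2 of the 3 did, and most own-number correlations lay above the mean of the other numbers. Replicate libraries differed beyond counting error. Low-count members such as Gabarapl1 and Atp6v0a1 are limited by depth.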
